A study of Homo sapiens with 4 samples.

Results

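Open chromatin at 6 genes known for their repression by androgen, OPRK1, MET, TMEFF2, DDC, BCHE and AKR1C3, was compared between LNCaP cells given GSK2879552 and LNCaP cells given vehicle. LNCaP is a line of human prostate cancer cells that respond to androgen, and GSK2879552 inhibits the histone demethylase LSD1 (KDM1A). ATAC-seq maps accessible DNA by letting a transposase insert sequencing adapters into it. The labels give a dose of 50 µM and a time of 4 hours in RPMI1640 with 5% CSS, after maintenance in medium with 10% FBS, and the same text stands for treated and vehicle samples. Each condition had 2 sequencing lanes, labelled as technical replicates, and 1 peak list, so there was 1 library per condition. No test between conditions was possible, no replicate spread could be measured, and each 95% interval given covers no more than counting error.

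A peak belonged to a gene when its summit lay in the gene body or within 50 kb of it, in hg19 coordinates. By this rule 78 of 161535 peaks of the GSK2879552 list and 106 of 191905 peaks of the vehicle list, on chromosomes 1 to 22, X and Y, fell at the 6 loci. The gene bodies were taken as chromosome 8, 54138276 to 54164194 for OPRK1, and chromosome 7, 116312459 to 116438440 for MET. TMEFF2 was placed at chromosome 2, 192814743 to 193059644, and DDC at chromosome 7, 50526134 to 50628768. BCHE was placed at chromosome 3, 165490692 to 165555253, and AKR1C3 at chromosome 10, 5136568 to 5149878. MET and AKR1C3 lie on the plus strand and the other 4 genes on the minus strand, and distances are given from the gene start along the direction of transcription. Exons and introns were not assigned, since no annotation of this build was used. RNA was not measured, nor was androgen varied, so the grouping of these genes was not checked by these data.

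The androgen receptor is best known for switching genes on, but it also lowers a set of genes when androgen is present. LSD1, which removes methyl groups from lysines of histone H3, is a partner of the androgen receptor and of the CoREST repressor complex, and has been linked in prostate cancer cells both to androgen-driven activation and to repression. Among the 6 genes are 2 receptors at the cell surface. OPRK1 encodes the kappa opioid receptor, and MET encodes the receptor tyrosine kinase for hepatocyte growth factor. TMEFF2 encodes a transmembrane protein with EGF-like and follistatin-like domains. The other 3 encode enzymes. DDC makes dopamine and serotonin from their amino acid precursors, BCHE hydrolyses choline esters, and AKR1C3 reduces androstenedione to testosterone.

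Summit height is given in tags, the number of mapped tags over the peak's summit, recovered from the deposited fold enrichment and p-value. The genome-wide background was 2.716 tags in the GSK2879552 library and 2.31 tags in the vehicle library, and their ratio of 1.18 was used to scale tags for depth. A scaled ratio of 1 thus means equal height relative to this background. Total tags per library were not given, so equal depth rests on the background alone. Over all 110134 pairs, in which each peak overlapped a single peak across the lists, the scaled ratio of GSK2879552 to vehicle summed tags was 0.683 (interval 0.682 to 0.684), and the loci were read against that value.

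The gene starts differed in height and in base composition. Promoter sequences from RefSeq (GRCh38.p14, a different build from the peaks, so positions below do not match those of the peaks) were found for 5 of the 6 genes. Each runs from 250 bases before to 50 bases after the start. Where RefSeq has several starts, as for DDC and AKR1C3, the one whose distance to the gene's end was nearest to the gene body used here is shown. That distance was 245888 bp for TMEFF2 and 126182 bp for MET, against bodies of 244902 bp and 125982 bp used here, so these windows may be shifted from the starts used for the peaks. MET and TMEFF2, with the tallest start-site peaks of the 6 genes, are shown first. AKR1C3 and BCHE, with low ones, follow, and DDC is shown as the gene with no vehicle peak within 2 kb of the start used here. Capitals mark matches, on either strand, to the motifs searched, which may overlap.
MET, chr7:116671946-116672245, plus strand: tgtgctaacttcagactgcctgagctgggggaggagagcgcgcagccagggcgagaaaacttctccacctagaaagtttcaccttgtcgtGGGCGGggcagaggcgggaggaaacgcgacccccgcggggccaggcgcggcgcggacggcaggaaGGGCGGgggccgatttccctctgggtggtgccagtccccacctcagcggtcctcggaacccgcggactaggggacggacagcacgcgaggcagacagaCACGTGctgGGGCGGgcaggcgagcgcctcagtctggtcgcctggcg
TMEFF2, chr2:192194884-192195183, minus strand: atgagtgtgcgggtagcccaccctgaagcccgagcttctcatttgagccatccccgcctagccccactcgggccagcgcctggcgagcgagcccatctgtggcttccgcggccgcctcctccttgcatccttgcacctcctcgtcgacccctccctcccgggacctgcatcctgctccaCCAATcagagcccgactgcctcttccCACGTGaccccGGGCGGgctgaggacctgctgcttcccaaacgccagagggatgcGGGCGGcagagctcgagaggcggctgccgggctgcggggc
AKR1C3, chr10:5094164-5094463, plus strand: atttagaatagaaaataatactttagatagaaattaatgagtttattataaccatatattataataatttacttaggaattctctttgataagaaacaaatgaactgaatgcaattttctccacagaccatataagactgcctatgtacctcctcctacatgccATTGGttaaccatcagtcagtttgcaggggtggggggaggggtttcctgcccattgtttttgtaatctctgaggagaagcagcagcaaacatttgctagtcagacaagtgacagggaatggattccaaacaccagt
BCHE, chr3:165837374-165837673, minus strand: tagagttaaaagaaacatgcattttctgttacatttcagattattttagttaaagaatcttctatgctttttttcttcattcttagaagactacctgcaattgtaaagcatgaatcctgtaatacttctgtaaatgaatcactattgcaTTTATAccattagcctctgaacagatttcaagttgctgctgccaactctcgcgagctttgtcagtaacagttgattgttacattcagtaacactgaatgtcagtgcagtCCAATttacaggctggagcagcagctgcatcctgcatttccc
DDC, chr7:50561022-50561321, minus strand: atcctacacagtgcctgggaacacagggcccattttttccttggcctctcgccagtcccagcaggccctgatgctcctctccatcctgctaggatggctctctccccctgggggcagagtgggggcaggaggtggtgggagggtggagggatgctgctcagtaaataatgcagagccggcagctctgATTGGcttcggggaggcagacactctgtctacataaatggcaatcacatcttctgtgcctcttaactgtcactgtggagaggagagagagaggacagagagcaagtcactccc

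The MET and TMEFF2 windows were 69.3% G and C each, with 30 and 24 CG dinucleotides. The DDC window was 57.3% G and C with 3 CG dinucleotides. BCHE and AKR1C3 were at 36.7% each, with 2 and 0 CG dinucleotides. Across all 35116 promoter windows of the RefSeq table the median was 58.7% and 14 CG dinucleotides. The GC box GGGCGG, a binding site of Sp1-type factors, matched 3 times in the MET window and 2 times in that of TMEFF2, and 45.0% of all windows hold it. The E-box CACGTG matched 1 time in each of these windows, where 7.26% of all windows hold it. The CCAAT box (CCAAT) matched 1 time in each of the windows of TMEFF2, DDC, BCHE and AKR1C3, and is held by 34.6% of all windows. In DDC and AKR1C3 this match was on the opposite strand. The TATA box TATAAA matched in BCHE alone among the 5, on the opposite strand, against 11.5% of all windows. The arm of the androgen response element, AGAACA, was in none of the 5 windows and in 14.8% of all windows. Its full palindrome (both arms, 3 bases apart), the forkhead motif TGTTTAC (3.42% of all windows) and the AP-1 motif TGACTCA (4.95%) also had no match. No match says only that these letters are not in these windows.

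At the gene starts, 5 of the 6 genes had a peak within 2 kb under both conditions, and its summit was lower with GSK2879552 in all 5, before any scaling. The summit at the MET start carried 66 tags with GSK2879552 (Poisson interval 51.0 to 84.0), against 84 tags with vehicle (67.0 to 104.0). Its scaled ratio was 0.668 (0.477 to 0.934). The TMEFF2 start carried 57 tags with GSK2879552 (43.2 to 73.9) and 76 tags with vehicle (59.9 to 95.1), a scaled ratio of 0.638 (0.444 to 0.911). Both intervals lie below 1 and include 0.683, the ratio over all pairs. Without scaling for depth they were 0.56 to 1.1 at MET and 0.522 to 1.07 at TMEFF2, so both then included 1.

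The OPRK1 start carried 34 tags with GSK2879552, against 44 tags with vehicle, a scaled ratio of 0.657 (0.407 to 1.05). The listed region there was 372 bp wide with GSK2879552 and 823 bp with vehicle. The BCHE start was low under both conditions, with 13 tags with GSK2879552 and 19 tags with vehicle, a scaled ratio of 0.582 (0.264 to 1.24). At the AKR1C3 start the tags were nearly equal before scaling, 21 with GSK2879552 and 22 with vehicle, a scaled ratio of 0.812 (0.425 to 1.55). These 3 intervals include 1 as well as 0.683, so at this depth the starts cannot be told apart from each other or from the whole set of pairs.

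DDC differed from the other genes at the start used here. RefSeq has 2 starts for DDC, and the other one was not examined for peaks. No vehicle peak lay within 2 kb of the start used. The GSK2879552 list held 1 peak there, 812 bp upstream, with 11 tags (5.49 to 19.7), near the lower end of that list, which begins at 9 tags. The nearest peak shared by both lists was 3.3 kb upstream by its vehicle summit, with 13 tags with GSK2879552 and 16 tags with vehicle. A listed peak on one side and none on the other does not give the tags of the unlisted library.

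**Figure D1:**
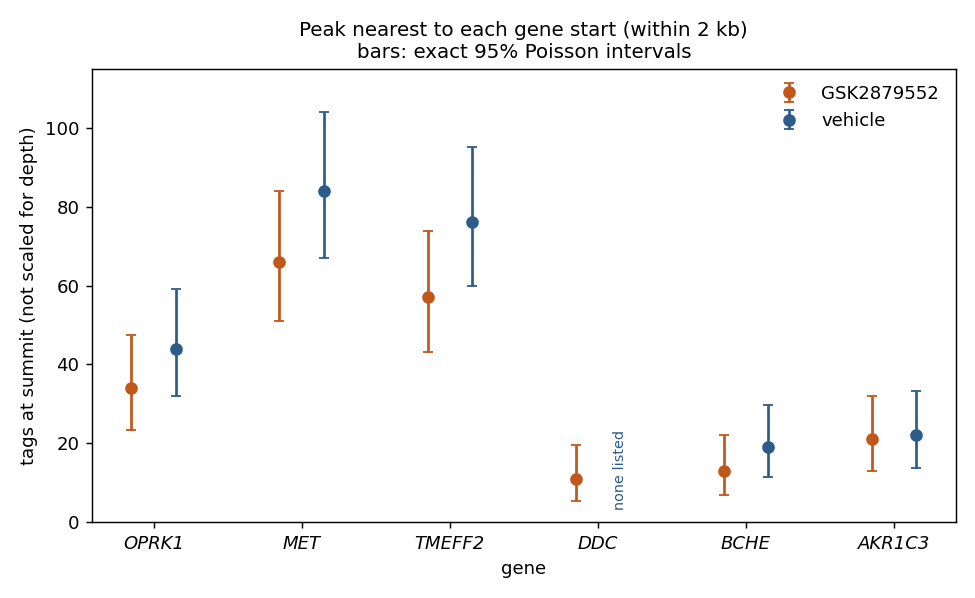
Tags at the summit of the peak nearest to each gene start (y axis, not scaled for depth) with GSK2879552 (orange) and vehicle (blue), for the 6 genes on the x axis, with exact 95% Poisson intervals. MET, TMEFF2 and OPRK1 stand highest under both conditions, the GSK2879552 value is lower in each of the 5 genes with both, and DDC has no vehicle peak.

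Around the starts the lists also differed in shape. At TMEFF2 the vehicle list held 1 region of 1271 bp over the start, the widest at the 6 loci, and the GSK2879552 list held 3 peaks that overlapped it, of 57, 24 and 19 tags. At 0.4 kb into the gene a separate peak had 24 tags with GSK2879552 and 22 tags with vehicle, a scaled ratio of 0.928 (0.498 to 1.74). Vehicle regions that overlapped several GSK2879552 peaks were 2 of 55 shared ones at the 6 loci and 5.11% in the whole list. They made up 44.1% of shared vehicle regions of at least 1000 bp in the whole list. At AKR1C3 a second peak, 0.4 kb into the gene by its vehicle summit, was the higher of the 2 at the start, with 24 tags with GSK2879552 and 33 tags with vehicle (0.619, 0.350 to 1.08).

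Over the loci as a set, fewer peaks were listed with GSK2879552 at 5 of the 6 genes and as many at AKR1C3. TMEFF2 had 15 peaks with GSK2879552 and 26 with vehicle, and MET had 16 and 25. DDC had 23 with GSK2879552 and 26 with vehicle, OPRK1 had 10 and 13, BCHE had 5 and 7, and AKR1C3 had 9 and 9. The total of 78 with GSK2879552 against 106 with vehicle is a ratio of 0.736 (exact binomial interval 0.542 to 0.995), which includes the 0.842 of the full lists. Peaks covered 16.5 kb with GSK2879552 and 23.8 kb with vehicle, a ratio of 0.695, beside 0.751 over the full lists. AKR1C3 went the other way in covered length, with 2.34 kb with GSK2879552 and 1.73 kb with vehicle.

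The loci differed in how densely they were listed. DDC had 11.4 peaks per 100 kb of its window with GSK2879552 and 12.8 with vehicle, the highest density of the 6, and BCHE the lowest, 3.04 with GSK2879552 and 4.25 with vehicle. In RefSeq, another build, the protein-coding genes GRB10 and FIGNL1 come within 50 kb of DDC, so its window may hold their peaks too. No protein-coding gene comes that near to BCHE. In the 1 Mb beyond each side of these windows 140 peaks were listed with GSK2879552 and 171 with vehicle around DDC, and 56 and 77 around BCHE. The caller's local background was above the genome-wide one at every DDC peak of the GSK2879552 list. It equalled the genome-wide one at all BCHE peaks of both lists. This concerns the background and not the summits, which reached 46 tags with GSK2879552 and 55 tags with vehicle at BCHE.

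**Figure D2:**
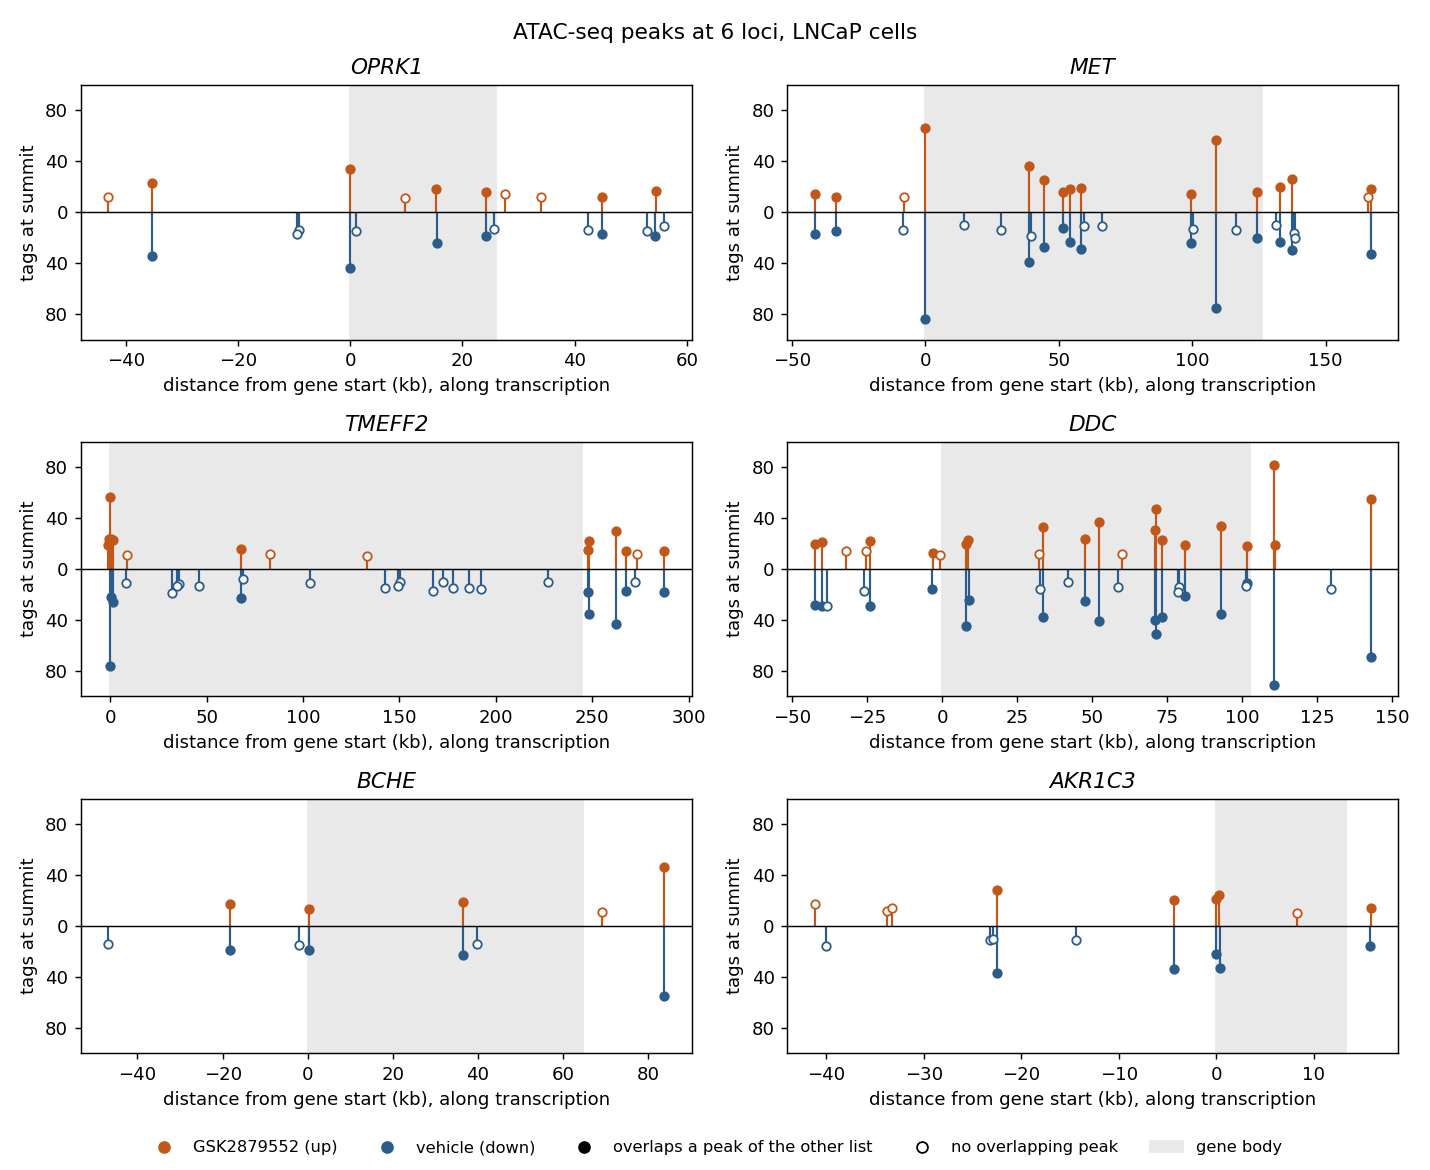
Peaks at the 6 loci by distance from the gene start in kb (x axis) and tags at the summit (y axis), with GSK2879552 drawn upward in orange and vehicle downward in blue. Filled points overlap a peak of the other list, open points do not, and grey marks the gene body. Peaks of 30 or more tags are filled in every panel, and the TMEFF2 body holds a row of open vehicle points of 8 to 19 tags.

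Peaks without a partner were mostly weak. Of the 106 vehicle peaks, 51 had no overlapping GSK2879552 peak, or 48.1%, where 38.5% of the whole vehicle list had none. Of the 78 GSK2879552 peaks, 20 had no overlapping vehicle peak, or 25.6%, where 23.5% of the whole GSK2879552 list had none. Stated as shared peaks, this is 74.4% of GSK2879552 peaks (63.2 to 83.6, against 76.5% in the whole list) and 51.9% of vehicle peaks (42.0 to 61.7, against 61.5%). Both intervals include the value of the whole list. The unpartnered peaks had a median of 12 tags in the GSK2879552 list and 14 tags in the vehicle list, and the shared ones 20.5 and 27 tags. The ranges overlapped: 1 vehicle-only peak, at DDC, had 29 tags, and 9 shared GSK2879552 peaks had under 15.

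By height, all 14 GSK2879552 peaks and all 23 vehicle peaks with 30 or more tags had a partner, where the whole lists gave 99.3% and 95.9%. From 20 to 29 tags, 19 of 19 GSK2879552 peaks had one (whole list 94.7%), and 18 of 20 vehicle peaks had one (68.3% to 98.8%, whole list 69.7%). From 15 to 19 tags, 16 of 17 GSK2879552 peaks had one, or 94.1% (71.3 to 99.9, whole list 74.4%), and 12 of 29 vehicle peaks, or 41.4% (23.5 to 61.1, whole list 38.0%). Under 15 tags, 9 of 28 GSK2879552 peaks had a partner, or 32.1% (15.9 to 52.4), where the whole list gave 38.3%. In that class 2 of 34 vehicle peaks had one, or 5.88% (0.72 to 19.7), where the whole vehicle list gave 21.5%. This was the only one of the 8 classes whose interval did not reach the whole list's share, with no allowance for the number of classes. With each locus left out in turn the share stayed between 3.45% and 8.70%. Whether its interval reached that of the whole list depended on single loci. Without TMEFF2, which had 0 of 11, the share was 2 of 23, or 8.70% (1.07 to 28.0). Without OPRK1 it was 2 of 30, or 6.67% (0.818 to 22.1). Both of these intervals include 21.5%.

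**Figure D3:**
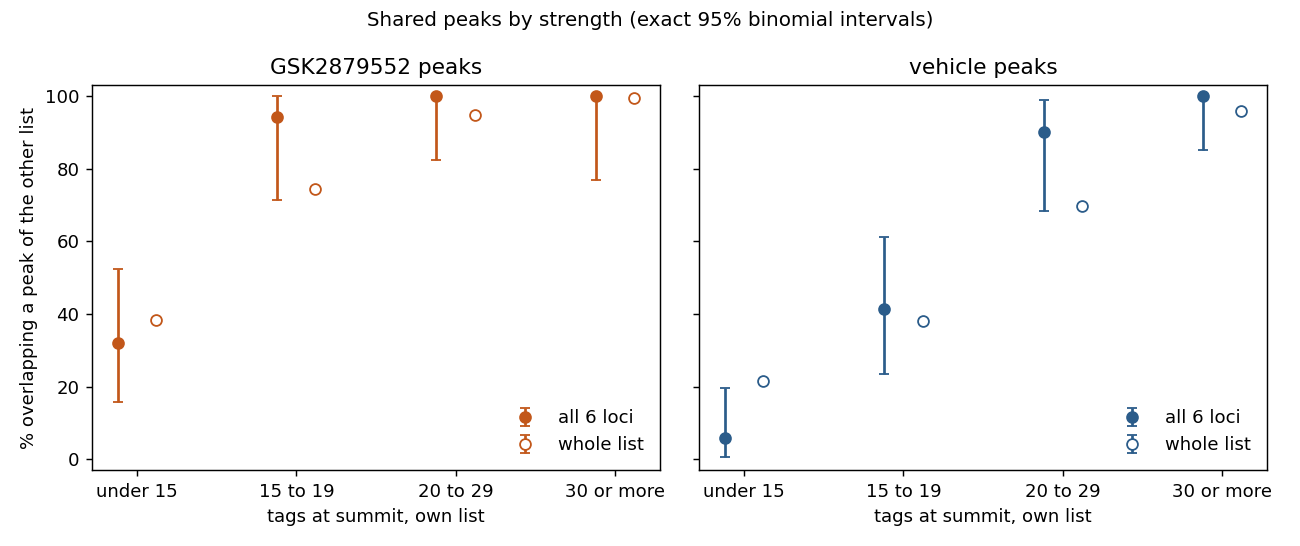
Percentage of peaks that overlap a peak of the other list (y axis) by tags at the summit (x axis), for GSK2879552 peaks (left) and vehicle peaks (right), at the 6 loci (filled) and in the whole list (open), with exact 95% binomial intervals. The share climbs with height in both lists, to 100% at the loci from 30 tags, and is lowest for vehicle peaks under 15 tags.

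TMEFF2 held 17 of the 51 vehicle peaks without a partner, and 16 of them lay inside its body, more than 2 kb from the start. In that stretch 4 peaks were listed with GSK2879552 and 17 with vehicle. Only 1 of the vehicle peaks, 67.8 kb into the gene, had a partner, with 16 tags with GSK2879552 and 23 tags with vehicle. The 16 others had 8 to 19 tags, and at 11 of them the caller's local background equalled the genome-wide one. The highest was 32.3 kb into the gene (193027281 to 193027389), with 19 tags, and its nearest GSK2879552 peak lay 23676 bp away. The 3 GSK2879552 peaks without a partner in the body had 10, 11 and 12 tags. With both lists cut to the same length, 9 of 10 vehicle peaks in this stretch had no partner, where 30.7% of the whole vehicle list had none. Among peaks whose −log10 q reached 5 it was 6 of 7, where the whole list gave 36.8%. Vehicle peaks this weak mostly lacked a partner everywhere: in the whole list 78.5% of those under 15 tags and 62.0% of those with 15 to 19 tags had none.

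Within the TMEFF2 window the thinner listing with GSK2879552 lay in the body. There 4 peaks were listed with GSK2879552 and 17 with vehicle, against 5 and 3 within 2 kb of the start. Past the gene's end 6 were listed in each. Fewer peaks with GSK2879552 were also listed beyond the window. In the 1 Mb on each side of the TMEFF2 window 68 peaks were listed with GSK2879552 and 107 with vehicle, a ratio of 0.636, against 0.577 in the window. Around the other 5 loci that ratio was between 0.727 and 0.925. Whether the surroundings bear on the TMEFF2 count was not tested. Beyond the end of TMEFF2 the peaks were mostly shared, 5 of 6 in each list. The tallest of these, 17.6 kb past the gene's end, had 30 tags with GSK2879552 and 43 tags with vehicle, a scaled ratio of 0.593 (0.359 to 0.968).

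The other unpartnered peaks were scattered. At MET, 7 of 15 vehicle peaks in the body had no partner, with 10 to 19 tags, while each of the 8 GSK2879552 peaks there had one. The whole lists had 38.5% of vehicle peaks and 23.5% of GSK2879552 peaks without a partner. Its strongest vehicle-only peak had 20 tags and lay 12.6 kb past the gene's end, and the nearest GSK2879552 peak was 933 bp away. At OPRK1 the strongest vehicle-only peak, with 17 tags, was 9.5 kb upstream. The strongest over all loci was 38.5 kb upstream of DDC (50667142 to 50667309), with 29 tags (19.4 to 41.6) where the local background was 5.72. It lay 1541 bp from the nearest GSK2879552 peak, on the side on which RefSeq places the protein-coding gene GRB10, within 50 kb of DDC. Among GSK2879552-only peaks the strongest had 17 tags and lay 41.2 kb upstream of AKR1C3, with a vehicle peak 794 bp away. RefSeq places AKR1C2, a close paralog, on that side, within 50 kb of AKR1C3. Whether reads that map to several AKR1C genes were misplaced there was not tested.

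**Figure D4:**
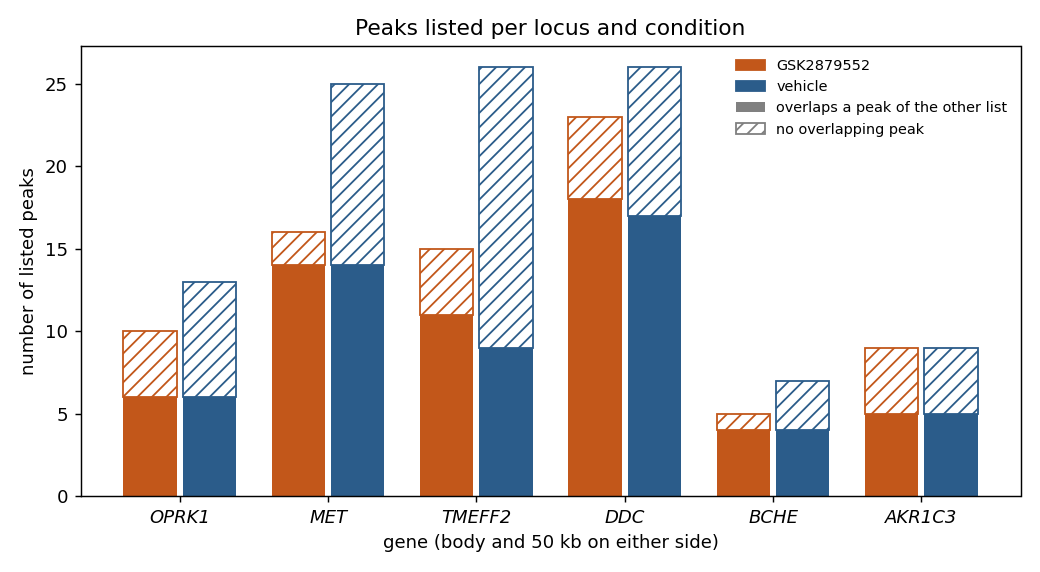
Number of peaks per locus (y axis) with GSK2879552 (orange) and vehicle (blue) for the 6 genes on the x axis, split into peaks that overlap a peak of the other list (solid) and those that do not (hatched). The shared parts differ by at most 2 peaks within each gene, and the vehicle bar of TMEFF2 has the tallest hatched part, 17 of 26 peaks.

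Where both lists held a peak, the summit was lower with GSK2879552 at nearly every pair. Among 53 pairs at the 6 loci, 50 had fewer tags with GSK2879552 before scaling, or 94.3%, where all pairs gave 83.3%. After scaling, 51 of 53 had a ratio below 1, or 96.2%, where all pairs gave 94.2%. Summed tags were 1277 with GSK2879552 and 1608 with vehicle, a scaled ratio of 0.675 (0.627 to 0.727), against 0.683 over the 110081 pairs elsewhere. The median log2 ratio was -0.56, as it was over all pairs. The lower height at these loci was within counting error of that across all pairs.

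The 6 genes did not separate from each other. Their pairs leave out the TMEFF2 start region and the tallest DDC region, since each of these vehicle regions overlapped several GSK2879552 peaks. The scaled ratio of summed tags was 0.650 (0.508 to 0.830) over 6 pairs at OPRK1, 0.673 (0.584 to 0.775) over 14 pairs at MET and 0.665 (0.537 to 0.823) over 8 pairs at TMEFF2. It was 0.693 (0.610 to 0.788) over 16 pairs at DDC, 0.697 (0.525 to 0.922) over 4 pairs at BCHE and 0.641 (0.494 to 0.830) over 5 pairs at AKR1C3. All 6 intervals lie below 1 and include 0.683. Without scaling for depth the BCHE interval, 0.618 to 1.08, reached 1. In the gene bodies alone, with scaling, the intervals of OPRK1, TMEFF2, BCHE and AKR1C3 reached 1 as well. In the 1 Mb beyond each side of these windows the ratio was between 0.659 and 0.677, so each gene also stood within counting error of its surroundings.

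Single elements spread more widely than the genes. At 2-fold or more on the scaled ratio, 3 of the 53 pairs were lower with GSK2879552, where 7.1% of all pairs were, and none was higher, where 0.000908% of all pairs were. The lowest was 7.9 kb into DDC (50620692 to 50620941 in the vehicle list), with 20 tags with GSK2879552 and 45 tags with vehicle, a scaled ratio of 0.378 (0.211 to 0.653). Its interval lies below 0.683. The neighbouring peak of DDC, at 8.8 kb, had 23 tags with GSK2879552 and 24 tags with vehicle, a scaled ratio of 0.815 (0.440 to 1.51). That interval makes no allowance for the pair being picked as the lowest.

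The other 2 pairs past 2-fold were at MET. One lay 40.8 kb past the gene's end (116479172 to 116479466), with 18 tags with GSK2879552 and 33 tags with vehicle, a scaled ratio of 0.464 (0.246 to 0.848). The other was 99.4 kb into the body, with 14 tags with GSK2879552 and 24 tags with vehicle (0.496, 0.237 to 0.999). An element 4.4 kb upstream of AKR1C3 (5132124 to 5132392) fell just short of 2-fold, with 20 tags with GSK2879552 and 34 tags with vehicle (0.500, 0.273 to 0.895). These 3 intervals include 0.683.

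Pairs above 1 were weak. The pair 101.7 kb into DDC had 18 tags with GSK2879552 and 11 tags with vehicle (1.39, 0.623 to 3.26), and the pair 51.5 kb into MET had 16 tags with GSK2879552 and 12 tags with vehicle (1.13, 0.503 to 2.63). Both intervals include 1 and also 0.683. Among the pairs whose tags summed to 40 or more, all 36 were below 1, where 97.98% of such pairs were in the whole lists. After the TMEFF2 peak at 0.4 kb, the highest of these were 2 body elements of DDC. The one at 92.9 kb had 34 tags with GSK2879552 and 35 tags with vehicle (0.826, 0.500 to 1.36), and the one at 47.7 kb had 24 tags with GSK2879552 and 25 tags with vehicle (0.817, 0.447 to 1.49).

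**Figure D5:**
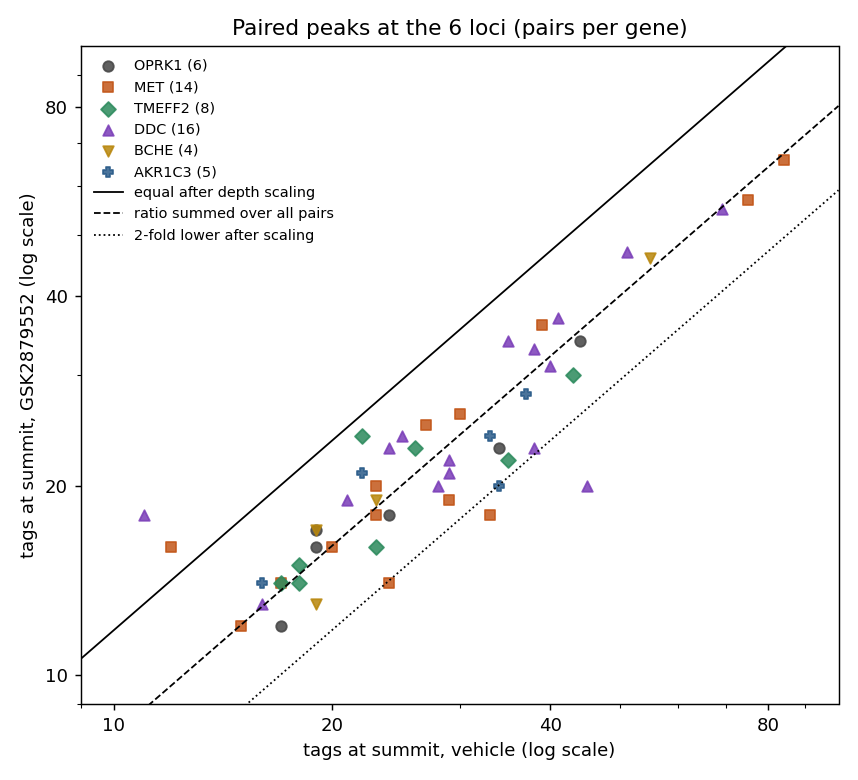
Tags at the summit of the 53 paired peaks of the 6 loci with GSK2879552 (y axis) against vehicle (x axis), both on log scales and not scaled for depth, with a symbol per gene. The solid line marks equal height after scaling for depth, the dashed line the ratio over all pairs and the dotted line a 2-fold lower height. Most points lie along the dashed line, 2 lie above the solid line, and a DDC element with 20 tags with GSK2879552 and 45 with vehicle lies farthest below the dotted line.

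In each locus the same pair was the tallest away from the start under both conditions, leaving aside the split region near DDC. At MET an element 108.8 kb into the body carried 57 tags with GSK2879552 and 75 tags with vehicle (0.646, 0.450 to 0.925), close to the height of the gene's start, and its summit was at the same base in both lists. A second MET element, 38.9 kb into the body, had 36 tags with GSK2879552 and 39 tags with vehicle (0.785, 0.485 to 1.27). Within the DDC body the tallest element, at 71.4 kb, had 47 tags with GSK2879552 and 51 tags with vehicle (0.784, 0.516 to 1.19). At OPRK1 the tallest distal element lay 35.3 kb upstream, with 23 tags with GSK2879552 and 34 tags with vehicle (0.575, 0.324 to 1.01). At AKR1C3 it lay 22.4 kb upstream by its vehicle summit, with 28 tags with GSK2879552 and 37 tags with vehicle (0.644, 0.379 to 1.08), above both peaks at the start. Summits of the 53 pairs were a median of 25 bp apart, against 17 bp over all pairs.

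Some of the tallest peaks in the windows lay past the gene's end. At BCHE the tallest was 19.1 kb past the end, with 46 tags with GSK2879552 and 55 tags with vehicle (0.711, 0.470 to 1.07), and the body held a single shared peak away from the start. At DDC the tallest region of all 6 loci lay 8.1 kb past the end by its vehicle summit. On that side RefSeq, in its own build, places the protein-coding gene FIGNL1 within 50 kb of DDC. This tallest region was listed as 1 region of 1100 bp with 91 tags with vehicle, and as 2 peaks of 82 and 19 tags with GSK2879552. A further DDC element 40.2 kb past the end had 55 tags with GSK2879552 and 69 tags with vehicle (0.678, 0.467 to 0.980). Which gene these flanking elements serve was not tested.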

How the data were processed

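The 2 peak lists, 1 per condition and each taken to pool 2 lanes, were used as deposited. The tools named, per the submitters' processing notes, are the aligner BWA (0.7.2), SAMtools (0.1.18) and the peak caller MACS2 (2.1.2), with build names hg19 (GRCh37). Read trimming, duplicate removal and any offset for transposase insertion were not given in the sources used here. In each list the deposited columns were a fold (a ratio over the caller's background), a −log10 p-value, a −log10 q-value and a score, equal to 10 times the −log10 q with decimals dropped in 100% of GSK2879552 rows and 99.9985% of vehicle rows. The smallest −log10 q was 1.3 in the GSK2879552 list and 1.31 in the vehicle list.

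Summit tags were computed from the deposited fold, (tags + 1) / (background + 1), and −log10 p, the Poisson probability of more tags. A whole number matched within 0.001 for 100% of rows, and the inversion was tested on simulated data. Total tags per library were likewise not given. Peaks were shared at 1 bp of overlap, and pairs overlapped exactly 1 peak each way. Shares have exact Clopper-Pearson intervals, tags exact Poisson intervals and ratios exact binomial intervals. Tags may include PCR copies, so these cover counting error only. A gene's start-site peak was the one with the summit nearest to the start. Named regions were, per locus, the start-site peaks, the pair with the most tags, the strongest unpartnered peaks and the widest region, and over the loci the 3 highest and 3 lowest ratios among pairs with at least 40 tags; other elements named were chosen after their values were seen. The genes, the design and the lists were chosen with earlier results of these data known. Other androgen-repressed genes and LNCaP markers were not analysed here, for want of an hg19 annotation, so the identity of the line was not checked. Neighbouring genes came from RefSeq by name. Alternatives changed the window, the overlap rule, the −log10 q, list length, depth scaling and background. Python 3.11.15, NumPy 2.4.6, pandas 2.3.3, SciPy 1.17.1 and matplotlib 3.10.9 were used.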

Additional observations from a re-analysis of the deposited data

How the results depend on the processing

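No replicate could be left out, and no paired analysis was possible because a condition had a single library, with lanes as technical replicates. Across all alternatives run, the 72 ratios of summit tags, some of them not scaled for depth, stayed below 1, between 0.524 and 0.955. The highest was the AKR1C3 start without scaling. The intervals of some single genes and starts reached 1, both with scaling and without. All pairs of the full lists were below 1 as well, at 0.683 with scaling and 0.803 without, for summed tags. Of 85 planned comparisons 79 stayed within the interval of the value reported, and 6 did not. The share of GSK2879552 peaks with a vehicle partner, 74.4%, became 91.8% among peaks whose −log10 q reached 5 and 57.7% with a reciprocal overlap of 50%. For vehicle peaks the share with a partner, 51.9%, became 62.7% with lists of equal length, in which weak vehicle peaks are left out. With no scaling for depth the ratio of summed tags, 0.675, was 0.794 over the 6 loci, with 0.792 in place of 0.673 at MET and 0.815 in place of 0.693 at DDC. A reciprocal overlap of 50% is stricter than 1 bp, so the share of GSK2879552 peaks with a partner can only fall under it. A −log10 q of 5 leaves out weak peaks, and 19 of the 20 GSK2879552 peaks without a partner had under 15 tags. Whether this accounts for the rise to 91.8% was not tested. The ratio of listed peaks, 0.736, was 0.576 in the gene bodies alone and 0.940 with lists of equal length. Leaving out each locus in turn, an alternative chosen after the data were seen, changed none of the 4 values over the loci beyond its interval; without TMEFF2 the ratio of listed peaks was 0.787 and the share of vehicle peaks with a partner 57.5%. In the same way, the share of vehicle peaks under 15 tags with a partner, 5.88%, lay between 3.45% and 8.70%, and its interval reached the whole list's share without TMEFF2 or without OPRK1. The count of vehicle-only peaks in the TMEFF2 body, 16, was 9 with lists of equal length and 6 where the −log10 q reached 5. The lowest listed summit had 9 tags with GSK2879552 and 8 tags with vehicle, so a peak without a partner sets no tag number for the other library.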
